A study of Mus musculus with 18 samples.

Results

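Voltage-gated sodium channels are the membrane proteins that carry the rising phase of the nerve impulse. The 9 genes described here are the members named in the selection rule, taken from the deposited count table by gene symbol. All 9 were found among the 15730 genes of that table. They comprise 6 alpha subunits (Scn1a, Scn3a, Scn8a, Scn9a, Scn10a and Scn11a), each of which forms a pore by itself, and 3 beta subunits (Scn2b, Scn3b and Scn4b), single-pass proteins that sit beside the pore and alter its gating, its surface level and its contacts with adhesion molecules.

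RNA was sequenced from the dorsal root ganglia, where the cell bodies of sensory neurons lie, of C57BL/6 mice aged 6 to 8 weeks. The ganglia were those that supply the sciatic nerve, and each of the 18 samples pooled ganglia from 2 mice at 24 hours after the procedure. There were 6 groups of 3 samples. SNA_Saline is injury of the sciatic nerve with saline, and Sham_Saline is the sham operation with saline. SNA_NAC is the nerve injury with 30 mM N-acetyl-cysteine, which acts as an antioxidant. Sham_H2O2 is the sham operation with 13 mM hydrogen peroxide. In DCA the dorsal columns were injured, the part of the spinal cord in which the inner axon branches of these neurons ascend, and LAM is laminectomy, the opening of the vertebra without cord injury. No transgene was used. Whole ganglia were taken, so that fewer cells of a type and less RNA per cell cannot be told apart in any value below.

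Sensory neurons differ in the sodium channels they use. Large myelinated neurons of touch and limb position rely on the channels of Scn1a and Scn8a, which the puffer fish poison tetrodotoxin blocks. Small neurons of pain and itch add the tetrodotoxin-resistant channels of Scn10a and Scn11a and the tetrodotoxin-sensitive channel of Scn9a, whose loss abolishes the sense of pain in people. Scn3a belongs mainly to embryonic neurons, and cut sensory nerves are known to express it again. Nerve injury is known to lower Scn10a and Scn11a in these neurons over the following days. The comparisons below show where the 9 transcripts stood at 24 hours.

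The libraries held 6472476 to 42435331 deposited counts, and the members had from 20 counts (Scn3a) to 21570 counts (Scn10a) in a sample. Replicates differed by more than counting noise, the smallest ratio of chi-square to degrees of freedom being 3.96 over genes. The injury gene Atf3 fitted the labels: it stood at 412 to 478 normalized CPM (counts corrected for library size) in the 6 libraries with a cut sciatic nerve and at 12.2 to 121 CPM in the other 12. Markers of neurons were present throughout, with a summed level of 6406 to 10804 CPM for 9 of 9 genes. Markers of other tissue varied within groups, and in Sham_Saline the summed level of 8 of 8 skeletal muscle markers was 120, 1522 and 8.41 CPM. None of the muscle markers was at 0.

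Levels can be compared between genes only per transcript length, for which the deposited FPKM values (fragments scaled to transcript length and library size) serve. Scn4b, the beta subunit linked to resurgent sodium current, was the highest with a mean of 75.5 FPKM over the 18 samples. Scn10a and Scn11a, the tetrodotoxin-resistant alpha subunits, followed at 72.9 and 58.1 FPKM. Scn9a stood at 28.5, Scn2b at 26.4 and Scn3b at 19.8 FPKM, and the alpha subunits of the nodes of Ranvier and of large neurons, Scn8a and Scn1a, at 10.7 and 9.98 FPKM. Scn3a was lowest with 0.284 FPKM, and only 4.59% of the genes in the count table had a lower mean.

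**Figure D1:**
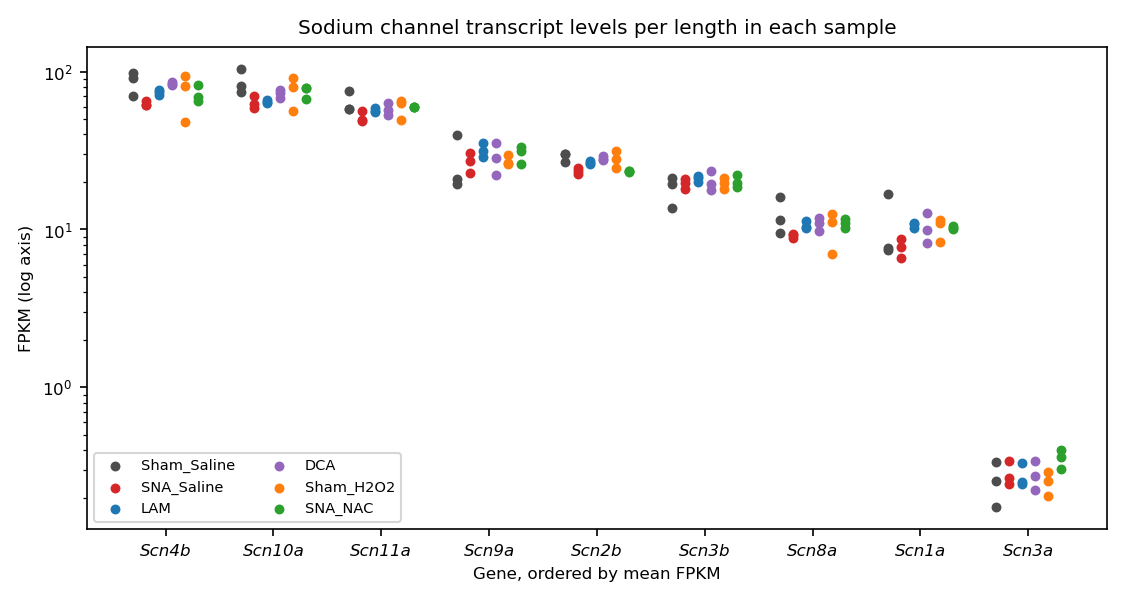
FPKM of each member gene in each of the 18 samples (log axis), ordered by the mean over all samples and coloured by group. Scn3a lies between 0.174 and 0.401 FPKM in every sample, and the other 8 genes lie at 6.62 FPKM or higher.

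In this order, 5 of the 8 steps held in each of the 18 samples. Scn10a exceeded Scn11a in every sample by 1.12 to 1.40 times, Scn11a exceeded Scn9a by 1.59 to 3.01 times, and Scn1a exceeded Scn3a by 19.2 to 56.0 times. Scn2b was above Scn3b and Scn3b above Scn8a in all 18 as well. The order rests on the lengths behind the deposited FPKM. These lengths come out at 5618 nt for Scn3b and 11222 nt for Scn1a, where the longest annotated transcripts have 4150 and 8386 nt. For Scn2b and Scn8a they come out at 4621 and 12298 nt, beside 4656 and 11436 nt. The order with other lengths was not tested. The other 3 steps did not hold throughout: Scn4b was above Scn10a in 11 samples, Scn9a above Scn2b in 13 and Scn8a above Scn1a in 13, so that these neighbours did not differ beyond the spread between samples.

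The make-up of the alpha subunits was compared by shares of FPKM. Scn10a and Scn11a together made up 75.7% ± 3.97 of the summed FPKM of the 6 alpha subunits in Sham_Saline, 72.3% ± 3.91 in SNA_Saline and 69.5% ± 1.35 in LAM (SD, n = 3 each), with 72.2 to 73.5% as the means of the other groups. The share of Scn11a alone was nearly constant, with group means from 31.9 to 32.6%. The share of Scn9a ranged more widely, from a mean of 13.0% ± 2.48 in Sham_Saline to 18.1% ± 1.54 in LAM (SD, n = 3 each), and from 10.9% to 19.8% over samples. That of Scn3a had its lowest mean in Sham_Saline, at 0.127%, and its highest in SNA_NAC, at 0.191%. Among the 3 beta subunits Scn4b held 51.3 to 69.1% of the summed FPKM, Scn2b 18.8 to 26.0% and Scn3b 10.4 to 22.7%, with a mean of 13.6% ± 3.01 in Sham_Saline and 18.5% ± 1.58 in SNA_Saline (SD, n = 3 each). In Sham_Saline replicates 1 to 3 the share was 15.7, 10.9 and 12.3% for Scn9a and 14.3, 10.4 and 16.3% for Scn3b. No share was adjusted for the base composition of the transcripts, which is taken up below, and its part in these differences was not tested.

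**Figure D2:**
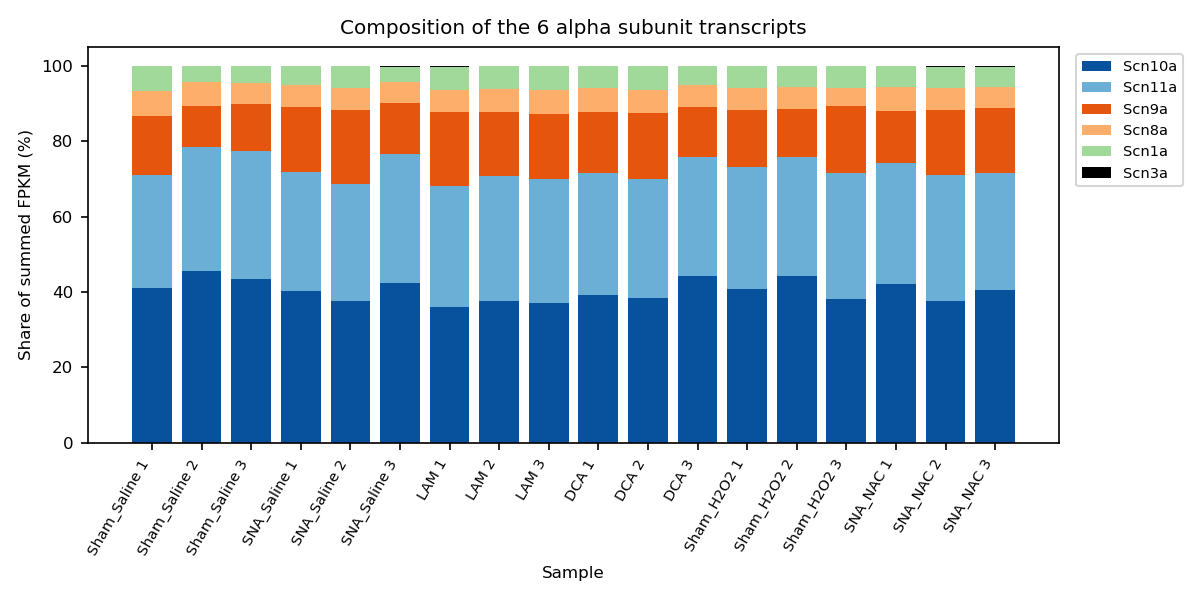
Share of each alpha subunit gene in the summed FPKM of the 6 (percent, stacked to 100) in each sample. Scn10a holds 36.0 to 45.7% and Scn11a 30.0 to 34.2% of every bar, and the Scn3a share, at most 0.223%, is a thin line at the top where it can be seen at all.

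Most of the genes lie in clusters, given here on GRCm38, the build that the processing notes name as mm10. On chromosome 2, Scn3a (chr2:65457118-65567627, minus strand) stands beside Scn2a, and Scn1a (chr2:66270778-66440840), Scn9a (chr2:66480080-66634962) and Scn7a follow one another on the minus strand. On chromosome 9, Scn10a (chr9:119608456-119719322) and Scn11a (chr9:119753759-119825456) are direct neighbours on the minus strand. Scn2b (chr9:45117782-45130070) and Scn4b (chr9:45138395-45154152) are neighbours on the plus strand of the same chromosome, which also carries Scn3b (chr9:40269217-40291618). Scn8a lies alone on chromosome 15 (chr15:100869858-101045938, plus strand). Genes on the opposite strand overlap Scn1a, Scn3a, Scn9a, Scn2b and Scn3b. Of these, Gm13629 within Scn9a had 3.50 to 11.5 CPM and Gm10684 within Scn2b 2.38 to 4.82 CPM, far below their hosts. The kit keeps the strand, but whether strand was used in counting is not given in the sources used here, so that reads of such pairs may not have been told apart.

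Promoter windows were matched in the RefSeq table for 7 of the 9 members (build GRCm38.p6), all but Scn3a and Scn3b. Printed below are the windows of Scn1a, Scn11a and Scn2b, the members that passed the threshold after sciatic injury once base composition was accounted for, and of Scn9a, the chromosomal neighbour of Scn1a. Each holds up to 250 bases before the RefSeq transcript start, 5′ to 3′, stopped at the first base of any annotated exon of the gene. They are chr2:66440841-66441087 (minus strand) for Scn1a, chr2:66634963-66635212 (minus strand) for Scn9a, chr9:119825457-119825706 (minus strand) for Scn11a and chr9:45117626-45117781 (plus strand) for Scn2b. Capitals mark the match described after them.

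Scn1a: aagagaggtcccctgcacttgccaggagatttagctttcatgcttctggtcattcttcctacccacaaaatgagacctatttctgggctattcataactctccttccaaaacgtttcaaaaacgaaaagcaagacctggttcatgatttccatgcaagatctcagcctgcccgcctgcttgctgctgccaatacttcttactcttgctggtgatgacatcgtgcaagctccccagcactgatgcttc
Scn9a: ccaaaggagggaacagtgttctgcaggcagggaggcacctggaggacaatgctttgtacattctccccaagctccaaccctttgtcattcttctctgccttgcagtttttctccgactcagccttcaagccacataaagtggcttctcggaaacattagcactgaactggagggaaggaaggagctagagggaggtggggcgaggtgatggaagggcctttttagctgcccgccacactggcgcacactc
Scn11a: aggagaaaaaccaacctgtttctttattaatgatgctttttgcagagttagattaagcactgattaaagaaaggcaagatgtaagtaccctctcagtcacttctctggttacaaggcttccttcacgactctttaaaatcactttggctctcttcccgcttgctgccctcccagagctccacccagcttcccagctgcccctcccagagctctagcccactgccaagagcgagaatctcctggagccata
Scn2b: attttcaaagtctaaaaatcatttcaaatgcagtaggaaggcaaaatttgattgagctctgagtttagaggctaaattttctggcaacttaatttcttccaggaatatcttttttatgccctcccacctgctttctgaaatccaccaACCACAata

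Windows of 250 bases before the RefSeq start were searched on both strands for TGACTCA (AP-1), TGACGTCA (CRE), TGTGGT (RUNX), TAATTA (a homeodomain core), GGGCGG (a GC box) and TATAAA (as in the promoter element of that name). Some windows reach into annotated exons of their gene. The Scn10a window begins in an exon, and only the first 21 bases of the Scn4b window and 156 of the Scn2b window lie before an exon. The motifs AP-1 and CRE were chosen because Atf3 and Jun proteins bind such sites, and RUNX and homeodomain letters because Runx and homeodomain factors act in sensory neurons. The windows of the members held 1 match, TGTGGT on the minus strand of Scn2b, shown in capitals as ACCACA. It begins 103 bases before the RefSeq start, which follows chr9:45117875, whereas the printed stretch stops earlier, at the first annotated exon. Of 32851 promoter windows in the table, 14.05% held TGTGGT, 4.46% TGACTCA, 1.55% TGACGTCA, 4.84% TAATTA, 32.7% GGGCGG and 12.4% TATAAA. A missing match says only that these letters are not in the window. GC shares of the windows differed widely, from 38.4% in Scn2b to 68.0% in 1 of 2 windows of Scn8a, against a median of 52.4% over all windows.

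Injury of the sciatic nerve was the first comparison, and asks how peripheral axotomy changes the ganglion. None of the 9 members passed the threshold (Benjamini-Hochberg adjusted p under 0.05 in edgeR's quasi-likelihood test over all genes), where 2.73% of all genes did. Of the 9 members, 6 had a lower estimate in SNA_Saline than in Sham_Saline, and so had 53.5% of all genes. Members lower with an unadjusted p under 0.05 were 5 (Scn8a, Scn10a, Scn11a, Scn2b and Scn4b) and none was higher, where 12.3% of all genes were lower and 10.1% higher at that level. Lower without overlap between the groups were 4 members (Scn10a, Scn11a, Scn2b and Scn4b) and 8.8% of all genes. The median log2 fold change of the members was -0.28, beside -0.03 for all genes.

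Scn10a, the main tetrodotoxin-resistant channel of nociceptors, stood at 665, 525 and 466 CPM in Sham_Saline replicates 1 to 3 and at 411, 390 and 449 CPM in SNA_Saline. Each injured sample was below each sham sample, and replicate 1 of the sham group stood well above the other two. The log2 fold change was -0.41 with a standard error of 0.14 (95% interval -0.71 to -0.10; edgeR adjusted p = 0.137). Scn11a, whose channel opens near the resting potential, had 441, 342 and 331 CPM in the sham samples and 294, 293 and 330 CPM after injury. The groups were separate, but the highest injured and the lowest sham sample nearly met. Its log2 fold change was -0.28 (SE 0.12; edgeR adjusted p = 0.191).

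Scn2b was the steadiest member, with a within-group SD of 0.07 on the log2 scale, beside a median of 0.24 over all genes. This beta subunit is tied to the alpha subunit by a disulphide bond and raises the number of channels at the surface. It stood at 136, 124 and 134 CPM in Sham_Saline and at 106, 111 and 111 CPM in SNA_Saline, without overlap. Its log2 fold change was -0.26 (SE 0.08; 95% interval -0.44 to -0.09), with the lowest p of the 9 genes (edgeR adjusted p = 0.10). DESeq2 placed the same gene past the threshold, with a log2 fold change of -0.28 and an adjusted p of 0.00927, in a test that called 5.49% of all genes.

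Scn4b had 480, 451 and 342 CPM in the sham samples and 311, 316 and 323 CPM after injury. The injured samples lay close together and all below the sham range. The log2 fold change of -0.42 had a standard error of 0.17 (edgeR adjusted p = 0.173). Scn8a, the channel of the nodes of Ranvier, had 196, 141 and 113 CPM in the sham samples and 110, 117 and 113 CPM after injury. One sham sample lay within the range of the injured group. Its log2 fold change was -0.41 (SE 0.18; edgeR adjusted p = 0.203).

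For Scn1a, a channel of large touch neurons, the sham samples were 186, 82.8 and 82.7 CPM and the injured samples 88.5, 100 and 73.2 CPM. Its estimate of -0.43 rests on the first sham sample: without it the log2 fold change was 0.08. Scn9a behaved alike within the sham group, at 425, 209 and 220 CPM, and stood at 299, 339 and 243 CPM after injury (log2 fold change 0.04, 95% interval -0.45 to 0.54). Scn3b, a beta subunit found mainly on small neurons, had 117, 76.0 and 107 CPM against 113, 119 and 99.6 CPM. Its log2 fold change was 0.15 (95% interval -0.17 to 0.46). The sparse Scn3a had 4.19, 2.19 and 3.12 CPM against 3.43, 3.13 and 4.28 CPM, with a log2 fold change of 0.20 (95% interval -0.32 to 0.72). For these 4 genes the sham and injured ranges overlapped.

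**Figure D3:**
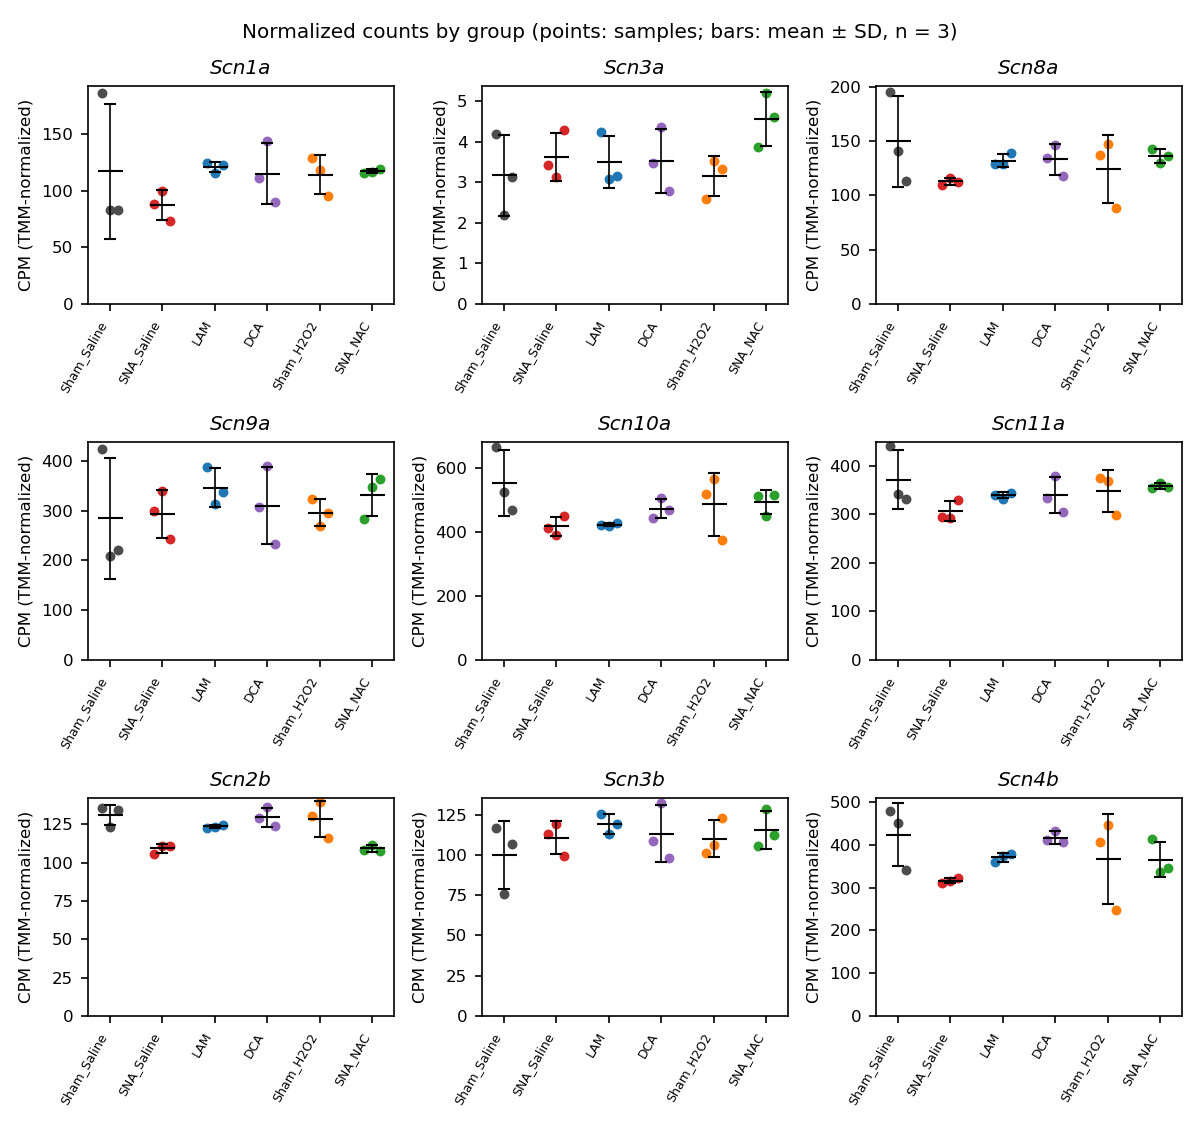
CPM of each member gene in the 6 groups (points are samples, horizontal bars the mean, error bars the SD, n = 3). In the Scn2b panel the samples with a cut sciatic nerve lie at 106 to 112 CPM and all others at 116 to 140 CPM, and in the Scn1a and Scn9a panels 1 Sham_Saline sample lies far above the other two.

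The same-numbered libraries shared a sequencing lane. Within lanes, Scn8a, Scn10a, Scn11a, Scn2b and Scn4b were lower after injury in 3 of 3 lanes. The log2 differences ran from -0.36 to -0.15 for Scn2b, from -0.69 to -0.05 for Scn10a and from -0.83 to -0.004 for Scn8a, with the smallest differences of Scn8a, Scn10a, Scn11a and Scn4b in lane 3. Summed levels of neuron markers overlapped between the groups. Between Sham_Saline and SNA_Saline the summed level ranged over 6794 to 10804 and 6762 to 7682 CPM for 9 neuron markers, 2337 to 2977 and 2693 to 2760 CPM for 8 nociceptor markers, and 3179 to 4114 and 3165 to 3209 CPM for 9 markers of myelinated neurons. Estimates were below 0 for 6 of 9, 4 of 8 and 8 of 9 of these markers, with median log2 fold changes of -0.37, 0.005 and -0.33, beside -0.28 for the members. One of them was called, the nociceptor marker Prdm12, a regulator of pain neuron development named here after its values were seen, as lower (log2 fold change -0.47, SE 0.10; edgeR adjusted p = 0.0144). Without overlap, 1, 1 and 2 markers of the 3 lists were lower, beside 8.8% of all genes. Markers higher without overlap were 1, 0 and 1, and the share of all genes for these is not given here. The part of the markers in the result was not tested.

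Base composition moved with several members. The GC share of the longest transcript was 42.4% in Scn9a, 43.3% in Scn1a and 42.1% in Scn3a, and 54.5% in Scn4b, beside a median of 49.6% over genes. In each library the GC slope was taken, the change in log2 CPM relative to the gene's mean over libraries per SD of GC share over genes. It ran from -0.22 in Sham_H2O2 replicate 3 to 0.43 in Sham_Saline replicate 2. The 5 libraries with the steepest positive slope, Sham_Saline 2 and 3, DCA 3, Sham_H2O2 2 and SNA_Saline 3, were the 5 lowest libraries for Scn9a. Of these 5, 4 were also among the 5 lowest for Scn1a, and 1 of them for Scn2b. Offsets in the fit for the GC share and the length of the transcript lowered the within-group SD on the log2 scale from 0.32 to 0.10 for Scn9a, from 0.33 to 0.17 for Scn1a and from 0.18 to 0.09 for Scn10a, while that of Scn2b moved from 0.07 to 0.06.

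**Figure D4:**
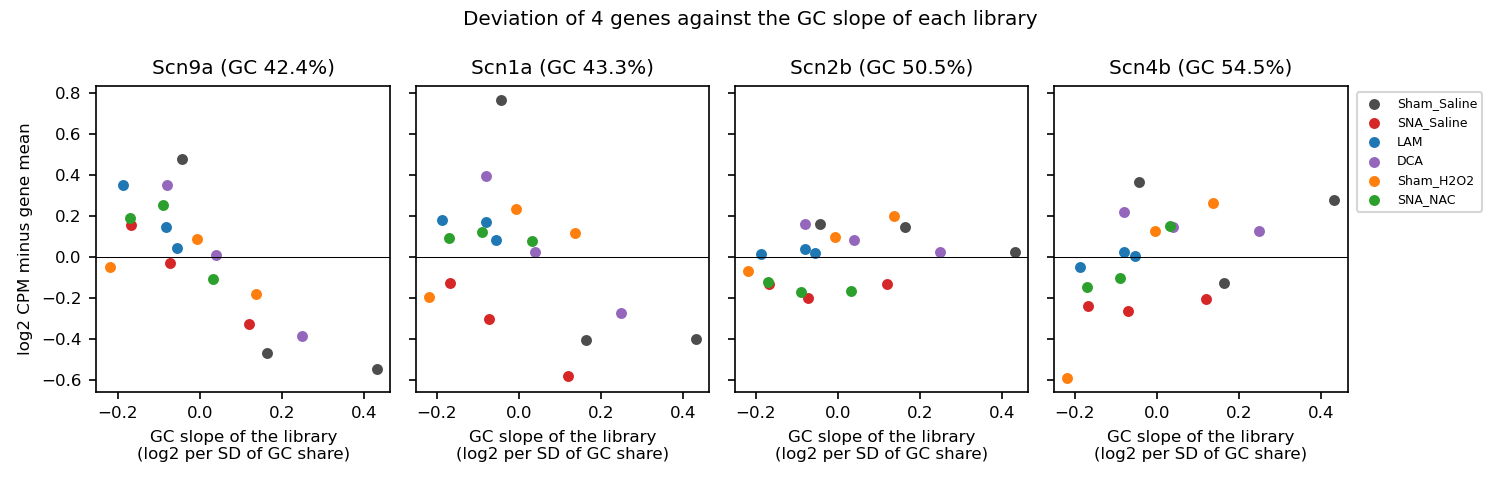
Log2 CPM of 4 member genes minus the gene's mean over samples (vertical axis) against the GC slope of the library (horizontal axis, log2 per SD of GC share), one point per sample. The 5 libraries with the steepest positive slope are the lowest for Scn9a, whereas Scn2b stays within a narrow band.

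With these offsets 3 of the 9 members passed the threshold as lower after sciatic injury, where 2.27% of all genes passed as lower. Scn1a, at 146, 114 and 103 offset-adjusted CPM in Sham_Saline against 86.3, 88.1 and 82.8 CPM in SNA_Saline, had a log2 fold change of -0.50 (SE 0.12; edgeR adjusted p = 0.0166). Scn11a, at 373, 384 and 364 against 295, 281 and 349 CPM, had -0.28 (SE 0.08; edgeR adjusted p = 0.0401). Scn2b, at 125, 120 and 138 against 107, 113 and 110 CPM, had -0.21 (SE 0.06; edgeR adjusted p = 0.0399). The groups of each of the 3 were then apart, and so were those of Scn8a and Scn10a. That made 5 of 9 members lower without overlap. The share of all genes lower without overlap in this fit is not given here.

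Scn8a and Scn10a had log2 fold changes of -0.27 and -0.23 in that fit (edgeR adjusted p = 0.0806 and 0.0929), and Scn4b had -0.16 (edgeR adjusted p = 0.450). Scn9a stood at 323, 294 and 283 CPM in Sham_Saline and 291, 297 and 277 CPM in SNA_Saline after adjustment, a log2 fold change of -0.06. The 3 calls depended on single libraries. Leaving out 1 library at a time left 0 to 2 members called: 0 without SNA_Saline 1, Scn1a alone without SNA_Saline 2 or Sham_Saline 3, Scn11a alone without SNA_Saline 3, Scn2b alone without Sham_Saline 1, and Scn1a with Scn2b without Sham_Saline 2. The shares of all genes called in these fits are not given here, so a change in the members cannot be told from a change in all calls. With the lane as a replicate block beside the offsets, Scn1a was called (log2 fold change -0.49, edgeR adjusted p = 0.0116; 6.44% of all genes called) and Scn2b and Scn11a had adjusted p-values of 0.0588 and 0.0605. Over all 21 alternative fits the estimates of Scn8a, Scn10a, Scn11a, Scn2b and Scn4b were below 0 in each, that of Scn4b at -0.01 with the offsets and without Sham_Saline 1.

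Injury of the dorsal columns, the central counterpart, was compared with laminectomy. No member passed the threshold in DCA against LAM, and neither did any other gene (0% called in edgeR, with 5.04% of genes at an unadjusted p under 0.05 and 0 of the 9 members). DESeq2 and the other 14 alternative fits called none of the 9 either. The largest estimates were small: Scn4b was at 412, 434 and 406 CPM in DCA and 360, 374 and 379 CPM in LAM (log2 fold change 0.17, 95% interval -0.18 to 0.52), and Scn9a at 307, 389 and 234 against 388, 314 and 337 CPM (-0.16, 95% interval -0.65 to 0.33). Scn10a, at 443, 504 and 468 against 422, 416 and 427 CPM, and Scn4b were higher without overlap, 2 of 9 members beside 11.9% of all genes. With the GC and length offsets none of the 9 was higher without overlap, where 9.5% of all genes were. Scn4b then stood at 417, 456 and 355 against 431, 394 and 409 CPM (log2 fold change -0.009), Scn10a at 466, 513 and 454 against 484, 437 and 458 CPM (0.06), and Scn9a had -0.01. Before adjustment the LAM samples lay close together, with 332 to 344 CPM for Scn11a and 123 to 125 CPM for Scn2b.

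The difference between the sciatic and the dorsal column response was tested as an interaction. It was called for none of the 9 members, where 1.61% of all genes were called. At an unadjusted p under 0.05, 3 members were lower, where 18.7% of all genes were. Scn10a had a difference of -0.57 in log2 fold change (SE 0.20; edgeR adjusted p = 0.0952), Scn2b -0.33 (SE 0.12; edgeR adjusted p = 0.0944) and Scn4b -0.59 (SE 0.24; edgeR adjusted p = 0.115). Scn2b passed in DESeq2 with -0.33 (adjusted p = 0.0320), in a test that called 11.1% of all genes. With the GC and length offsets none passed, where 5.11% of all genes did, and Scn2b stood at -0.26 (edgeR adjusted p = 0.0822) and Scn1a at -0.57 (0.0605). Scn10a was -0.28 and Scn4b -0.15 in that fit (edgeR adjusted p = 0.125 and 0.609).

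**Figure D5:**
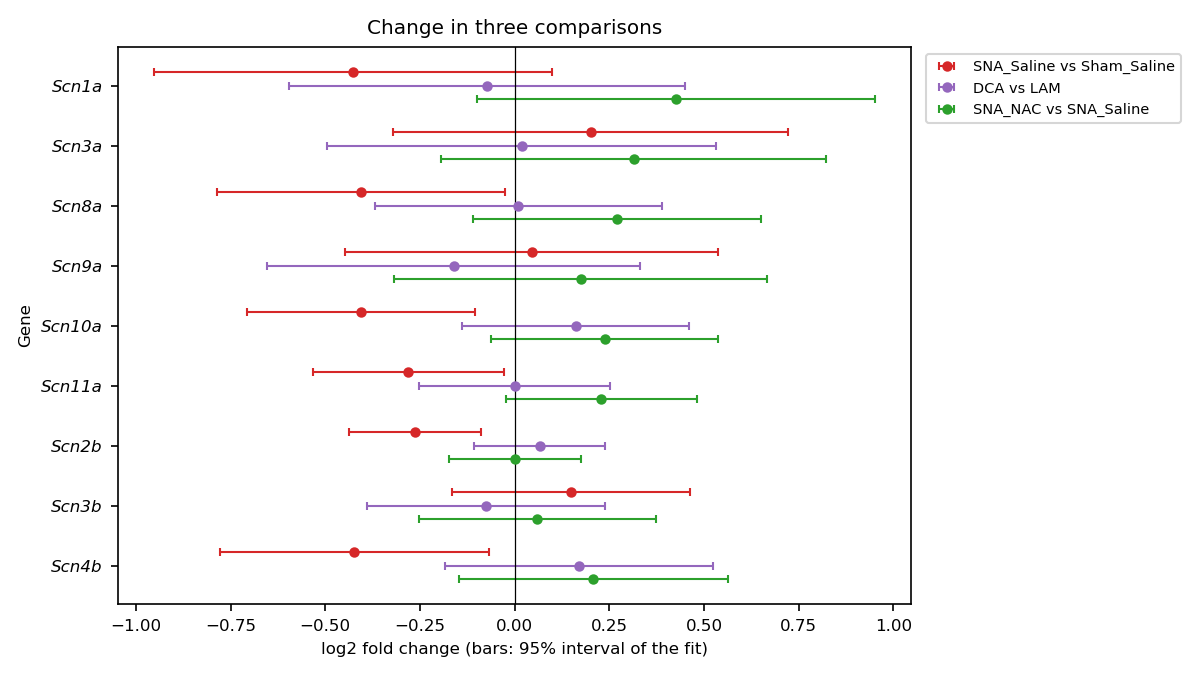
Log2 fold change of each member with its 95% interval from the edgeR fit in 3 comparisons. For SNA_Saline against Sham_Saline the intervals of Scn8a, Scn10a, Scn11a, Scn2b and Scn4b lie below 0, and in the other 2 comparisons each interval includes 0.

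Treatment with N-acetyl-cysteine was compared with saline after the same nerve injury. No member was called in SNA_NAC against SNA_Saline, and neither was any other gene (0% called in edgeR, with 2% of genes at an unadjusted p under 0.05, none of them a member), and none of the 9 was called in DESeq2 or the other 14 alternative fits. All 9 estimates were at or above 0, from 0.001 for Scn2b to 0.43 for Scn1a, whereas 50.6% of all genes were below 0. Scn1a, Scn8a, Scn11a and Scn4b were higher with N-acetyl-cysteine without overlap, 4 of 9 members beside 9.24% of all genes. Scn1a stood at 116, 117 and 119 CPM against 88.5, 100 and 73.2 CPM with saline, a log2 fold change of 0.43 with a 95% interval of -0.10 to 0.95. Scn11a stood at 353, 365 and 357 CPM against 294, 293 and 330 CPM, a log2 fold change of 0.23 (95% interval -0.02 to 0.48). Scn2b did not share this difference, with 108, 112 and 108 CPM beside 106, 111 and 111 CPM. With the GC and length offsets the median log2 fold change of the members went from 0.23 to 0.07. Scn1a then had 0.24 and Scn11a 0.09, and Scn2b and Scn9a were below 0, at -0.06 and -0.04. Scn1a, at 108, 96.0 and 99.2 against 86.3, 88.1 and 82.8 CPM, and Scn10a, at 461, 443 and 476 against 429, 411 and 440 CPM, were then higher without overlap, 2 of 9 members beside 8.77% of all genes. The groups of Scn8a, Scn11a and Scn4b overlapped after adjustment.

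Against the saline sham, the injured and N-acetyl-cysteine treated ganglia again gave no call among the members, where 3.32% of all genes were called. This comparison shares its controls with the first, and 2 members (Scn2b and Scn3a) had an unadjusted p under 0.05, where 27.6% of all genes did. Scn2b was lower without overlap, with a log2 fold change of -0.26 (SE 0.08; edgeR adjusted p = 0.0867), as was 9.68% of all genes. Scn2b passed in DESeq2 (-0.28, adjusted p = 0.00506), in edgeR with the offsets (-0.28, adjusted p = 0.00815) and with the block and the offsets (-0.28, adjusted p = 0.0145). Those tests called 8.42%, 7.79% and 7.2% of all genes. With the offsets 3 of the 9 members, Scn8a, Scn11a and Scn2b, were lower without overlap. The share of all genes lower without overlap with the offsets is not given here. Scn3a stood at 3.86, 5.19 and 4.60 CPM with N-acetyl-cysteine, the highest group mean of this gene at 4.55 ± 0.666 CPM (SD, n = 3), against 3.17 ± 1.00 CPM in Sham_Saline (log2 fold change 0.52, SE 0.24; edgeR adjusted p = 0.171). Without Sham_Saline replicate 1, 4 members passed: Scn1a at 0.50, Scn3a at 0.78, Scn9a at 0.63 and Scn2b at -0.24 (edgeR adjusted p = 0.0291, 0.0211, 0.0189 and 0.0401). That fit called 37.3% of all genes. The 2 sham libraries left in it are among the 5 with the steepest GC slope, and the part of the slope in these calls was not tested. With all libraries and the offsets, Scn1a was -0.26, Scn9a -0.10 and Scn3a 0.17 (edgeR adjusted p = 0.187, 0.475 and 0.602), so that Scn1a and Scn9a lay on the other side of 0. Scn1a was -0.002 with all libraries and no offsets. This comparison was not fitted with the offsets and without Sham_Saline replicate 1.

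Seen across all groups, Scn2b set the samples with a cut sciatic nerve apart. The 6 libraries of SNA_Saline and SNA_NAC lay between 106 and 112 CPM, and the 12 other libraries between 116 and 140 CPM. This split was noticed after the values were seen and is given as a description. How many of all genes split in this way was not counted, so it cannot be called particular to Scn2b. With the offsets the ranges were 103 to 113 and 120 to 138 CPM.

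Hydrogen peroxide with the sham operation was compared with saline. No member was called and none had an unadjusted p under 0.05, where 0% and 9.15% of all genes did in edgeR. DESeq2 and the other 14 alternative fits called none of the 9. The estimates ran from -0.27 for Scn8a (95% interval -0.65 to 0.11) to 0.14 for Scn3b (95% interval -0.17 to 0.46). With the offsets Scn8a was -0.16. All 9 ranges overlapped, where 5.43% of all genes had separate groups. The spread within Sham_H2O2 was wide for Scn10a, Scn8a and Scn4b. Replicate 3, the shallowest library and the one with the lowest GC slope, had 375, 88.2 and 248 CPM of them. The other 2 had 518 and 564, 137 and 147, and 407 and 447 CPM. With the offsets replicate 3 had 453, 102 and 310 CPM, beside 523 and 517, 138 and 135, and 413 and 400 CPM. Scn9a, Scn11a and Scn3b spread less in this group, with an SD of 0.13, 0.18 and 0.14 on the log2 scale.

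The 2 surgical controls were also set against each other. In Sham_Saline against LAM no member was called, where 0.0699% of all genes were. Scn10a was higher in the sham samples without overlap, with 665, 525 and 466 CPM against 422, 416 and 427 CPM in LAM (log2 fold change 0.39, SE 0.14; edgeR adjusted p = 0.110), as was 16.4% of all genes. With the offsets the sham and LAM ranges of Scn10a overlapped, at 462 to 555 and 437 to 484 CPM, and the log2 fold change was 0.12 (edgeR adjusted p = 0.393). Scn11a was then the 1 member higher without overlap, at 364 to 384 against 335 to 346 CPM. The share of all genes higher without overlap in that fit is not given here. Without Sham_Saline replicate 1, Scn1a and Scn9a passed as lower in Sham_Saline (log2 fold changes -0.55 and -0.69, edgeR adjusted p = 0.0282 and 0.0243), in a fit that called 31.8% of all genes. With all libraries and the offsets the values were 0.04 for Scn1a and -0.17 for Scn9a (edgeR adjusted p = 0.905 and 0.242).

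Of the family genes outside the 9, Scn7a, Scn2a (listed as Scn2a1), Scn4a and Nalcn were called in none of the 7 comparisons. Scn7a, the sodium-sensing channel of glia and some neurons, was abundant, with a median of 62.1 FPKM. The brain channel Scn2a, the muscle channel Scn4a and the leak channel Nalcn had medians of 0.852, 0.780 and 7.82 FPKM. Scn4a, the channel of skeletal muscle, was highest in Sham_Saline replicate 2 at 10.4 CPM, the library with 1522 CPM of muscle markers.

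Of 23 genes for partners of these channels, 22 were in the count table: the Fgf homologous factors, ankyrins and spectrin, adhesion molecules of the node, Nedd4 ligases, calmodulins and kinases among them. None was called in any of the 7 comparisons. After sciatic injury 12 of the 22 had a lower estimate, 3 were lower and 1 higher at an unadjusted p under 0.05, and the median log2 fold change was -0.04. The smallest p among them belonged to Sptbn4, the spectrin that anchors sodium channels at the axon initial segment and node, named here after its values were seen. It had 9.06 CPM on average in SNA_Saline and 17.97 CPM in Sham_Saline (log2 fold change -0.98; edgeR adjusted p = 0.121).

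The genes most like each member were found by Pearson's r of log2 CPM over the 18 samples, among genes with a mean count of at least 50, as a description. For Scn9a they were Kcnd3, Pgm2l1 and Ttll7 (r = 0.98 each), and for Scn1a Tmtc1, Tmem178b and Herc3 (r = 0.98, 0.97 and 0.97). For Scn4b they were Tmem229b, Hapln4 and Rph3a (r = 0.98, 0.97 and 0.97), and for Scn10a Abr, Map1a and Gbf1 (r = 0.94 each, to 2 digits). Scn8a went with Lpin1, Cgnl1 and Eif4g3 (r = 0.95, 0.95 and 0.94), Scn11a with Srgap3, Gabbr2 and Ubr2 (r = 0.90, 0.90 and 0.89), and Scn3b with Tmem184c, Rnf141 and Cul2 (r = 0.93, 0.93 and 0.92). Scn2b had Chrnb3, Wipf3 and Plcd4 (r = 0.90, 0.89 and 0.88), and Scn3a had Ipmk, Skil and Mllt10 (r = 0.83, 0.82 and 0.82). The points share their libraries, and with them depth and GC slope. Within groups r for the first gene of Scn9a was still 0.98, whereas for that of Scn2b it was 0.68. The transcripts like Scn4b had GC shares of 54.9 to 57.0% (54.5% in Scn4b itself), and those like Scn3b 40.6 to 43.1% (47.8%). Those like Scn10a had 53.0 to 54.8% (52.8%), Scn8a 50.1 to 52.7% (50.8%) and Scn1a 44.3 to 47.4% (43.3%). For Scn9a they were 40.9 to 49.1% (42.4%) and for Scn11a 50.6 to 56.0% (48.1%). Those of Scn2b were 45.4 to 55.1% (50.5%) and those of Scn3a 41.0 to 46.6% (42.1%). No member was among the 3 genes most like another member.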

How the data were processed

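Total RNA of 18 ganglion samples was made into libraries with a stranded mRNA kit and read as single ends on 3 lanes of 6 libraries each, per the labels' protocols. The submitters' processing notes name TopHat2 2.0.12, Bowtie2 2.2.3, SAMtools 0.1.19, HTSeq 0.6.0, edgeR 3.8.6, limma 3.22.7 and the build mm10; the strand setting of the counting is not given in the sources used here. The authors deposited whole-number counts per gene and FPKM values, both used as deposited. For the 9 members the deposited FPKM equals the count times 1 factor per gene and 1 per sample. Column names gave the samples.

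The quasi-likelihood test of edgeR 4.0.16 (R 4.3.3), with TMM factors and the filterByExpr filter, was fitted to all 18 samples at once. The filter kept all 15730 genes, and Benjamini-Hochberg adjustment ran over them, with a threshold of 0.05. Values in CPM are TMM-normalized, with a prior count of 2 on the log2 scale. The common biological coefficient of variation was 17.4%. The comparisons numbered 7. The rule for named genes took all members, further family genes in the table (some are not reported here), partner genes that were called, and the 3 genes most like each member. The members and lists were chosen with earlier results of these data known.

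Alternatives were DESeq2 1.42.0, no filter, a minimum of 10 counts throughout, a fit of the compared groups alone, a block for the replicate number, offsets from natural splines (5 degrees of freedom) in the GC share and length of each gene's longest GENCODE M21 transcript, block and offsets together, limma 3.58.1 on log2(FPKM + 1) and log2(FPKM + 0.1) of the deposited FPKM, and leaving out each sample. Leaving out samples with the offsets was added after seeing the data. Replicate numbers equal lanes in the labels, and same-numbered samples are different mice. The correlations of their deviations from the group means over genes were 0.10, -0.65 and -0.17 for lanes 1 to 3 in SNA_Saline against Sham_Saline. The labels do not say that the pools within a group came from separate experiments, so the p-values measure the spread between these pools. A permutation test of 3 against 3 samples cannot go below 0.1, so single genes were tested in the fits across all genes. The scripts were tested on simulated data. Without molecular identifiers, PCR copies cannot be told from separate molecules. Figures were drawn with matplotlib 3.10.9.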

Additional observations from a re-analysis of the deposited data

How the results depend on the processing

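For the sciatic comparison, no member was called in edgeR without offsets, 1 in DESeq2, 3 with the GC and length offsets and 1 with the replicate block and offsets. Leaving out 1 library with the offsets left 0 to 2 calls. With the replicate block alone, 0 of 9 members were called in each of the 7 comparisons, so the pairing by lane changed no call there. In SNA_NAC against Sham_Saline 1 member was called in DESeq2, with the offsets and with block and offsets, and 0 to 4 when leaving out 1 library. Sham_Saline against LAM gave 0 to 2 when leaving out 1 library. The difference between injuries gave 1 in DESeq2 and, with the offsets, 0 to 1 when leaving out 1 library. The shares of all genes called with the offsets and without 1 library are not given here. The cause of the differences between fits was not tested.

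Several log2 fold changes turned sign. Not all of them were near 0: that of Scn1a after sciatic injury was -0.43 with all libraries and no offsets. For the sciatic comparison Scn9a was -0.058 with the offsets and -0.056 with block and offsets. Leaving out 1 library gave -0.63 to 0.076 for Scn1a, -0.019 to 0.47 for Scn3a, -0.14 to 0.45 for Scn9a and -0.015 to 0.28 for Scn3b. In DCA against LAM Scn9a ran from -0.36 to 0.0069 without 1 library, and Scn4b was -0.0092 with the offsets and -0.017 with block and offsets. In SNA_NAC against SNA_Saline Scn2b was -0.0045 in DESeq2, -0.00032 with at least 10 counts in every sample, -0.0091 with only the 2 groups, -0.062 with the offsets, with or without the block, -0.0066 and -0.0068 with limma, and -0.022 to 0.013 without 1 library. In SNA_NAC against Sham_Saline Scn1a was -0.0015 in edgeR without offsets, 0.050 with the block, 0.053 and 0.066 with limma, -0.26 with the offsets and -0.20 to 0.50 without 1 library, and Scn9a was -0.099 with the offsets and -0.095 with block and offsets. Scn3b in Sham_H2O2 against Sham_Saline ran from -0.022 to 0.27 without 1 library. Scn1a in Sham_Saline against LAM was 0.035 with the offsets, 0.020 with block and offsets and -0.55 to 0.15 without 1 library.

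Depth limits Scn3a most, with 20 to 163 counts per sample. With 3 pools of 2 mice in a group, a call that was missed does not show that levels were equal.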
